A study of Rattus norvegicus with 15 samples.

Results

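Thigh muscle was compared between rats in midlife and young rats, to see what had already changed by midlife. The members were 10 of the 15 arrays of the series, chosen by the age in the sample labels: 5 arrays of middle-aged male Fisher-344 rats of 17 months and 5 arrays of young male Fisher-344 rats of 5 months. The other 5 arrays held old rats of 30 months, which entered the fit and are given only beside the genes described here. All groups shared the muscle (vastus lateralis), the strain, the sex and single housing on a standard chow, and none carried a treatment or an altered allele. Each array was taken as 1 rat.

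Values are log2 intensities after background correction and quantile normalization. A difference is middle-aged minus young on that log2 scale, with its SE from limma. A gene was called where its adjusted p lay below 0.05 over the 10021 features tested, each a gene symbol or an unnamed probe, in the fit that counts every array alike. Calls with array weights are named as such. The raw median signal was 98 to 110 on the middle-aged and 108 to 120 on the young arrays, and 8869 to 9658 probes were detected on the middle-aged and 9294 to 10132 on the young arrays. The muscle label fitted the markers: the 9 tested markers of muscle fibers summed to intensities of 259482 to 277773 in middle-aged and 207250 to 266625 in young muscle. Only middle-aged replicate 4 had fractions in its median, lowest and highest raw signal (101.5, 59.7 and 53139.1). The other arrays had whole numbers there, and the reason was not tested. Which BeadChip held which array is not given in the sources used here, and chip was therefore no term of the fit.

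Muscle fibers are large, long-lived cells. Molecular chaperones refold their damaged proteins, with heat shock proteins of the Hsp70 and Hsp110 families binding unfolded chains and Hsp40 co-chaperones bringing substrates to them, and mitochondria supply their ATP. Myogenic factors such as MyoD bind DNA and turn on muscle genes.

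The promoters of 3 genes that rose are shown because each gene is described in full below and its promoter holds a short motif of a signal or stress pathway. They were picked after the promoters were read. They are the 250 bases before the annotated start from RefSeq (GRCr8, reverse strand for all 3), 5′ to 3′ in lower case with the motif in capitals. The Slc25a25 window is chr3:36116582-36116831 and holds a cAMP response element. The Dnajb1 window is chr19:41431142-41431391 and holds a pair of heat shock units. The Nfkbia window is chr6:78597073-78597322 and holds a kappaB motif.
Slc25a25: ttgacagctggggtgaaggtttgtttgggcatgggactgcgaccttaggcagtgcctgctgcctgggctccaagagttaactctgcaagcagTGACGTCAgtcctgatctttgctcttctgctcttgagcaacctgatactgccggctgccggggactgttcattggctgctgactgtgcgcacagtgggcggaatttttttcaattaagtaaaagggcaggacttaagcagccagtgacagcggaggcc
Dnajb1: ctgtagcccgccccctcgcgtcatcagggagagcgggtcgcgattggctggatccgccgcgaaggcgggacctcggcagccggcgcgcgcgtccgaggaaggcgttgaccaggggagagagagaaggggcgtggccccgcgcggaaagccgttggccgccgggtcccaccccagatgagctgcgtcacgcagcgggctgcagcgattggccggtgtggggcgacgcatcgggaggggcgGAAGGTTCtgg
Nfkbia: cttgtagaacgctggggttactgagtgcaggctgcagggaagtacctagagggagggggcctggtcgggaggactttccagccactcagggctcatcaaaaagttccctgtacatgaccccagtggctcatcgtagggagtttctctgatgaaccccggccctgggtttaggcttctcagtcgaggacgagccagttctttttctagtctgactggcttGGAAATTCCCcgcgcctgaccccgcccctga
Of the 25 called genes with a symbol, 20 had a promoter sequence. The cAMP response element TGACGTCA was in 1.59% of all 33469 promoter sequences and, of the 20, in Slc25a25. The heat shock element of 3 units (GAA, TTC and GAA with 2 free bases between them, both strands) was in 0.663% of all and in 0 of the 20. The pair GAA then TTC was in 7.23% of all and in Dnajb1 and Schip1, and the pair TTC then GAA, which the 3-unit element also holds, was in 7.48% of all and in Hspa2. The kappaB motif was in 6.33% of all and in Nfkbia, Exosc8, Tapbp and RT1-CE15, and the E-box CANNTG was in 65.5% of all and in 11 of the 20. A match is a run of letters, and binding was not measured.

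By midlife 36 features were called (0.359% of those tested), 24 higher (0.239%) and 12 lower (0.12%) in middle-aged muscle. A mitochondrial carrier, chaperones and Myod1 were among the highest in rank. An unadjusted p below 0.05 was found for 1585 features (15.8%). Of the 36, 25 had a symbol, 17 higher and 8 lower. Sizes lay between 0.41 and 1.86, and 10 of the 36 reached 2-fold. The median of all features was -0.0017. The split by direction depended on the scaling: with the deposited Z scores 42 features were called higher and 129 lower, and 24 of the 36 were among them. Those that lost the call with the Z scores, all without a change of direction, were Tapbp, Pef1, Kdm8, Sox14, Ift43, Fibp, Exosc8, RT1-CE15 and 4 unnamed probes.

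**Figure D1:**
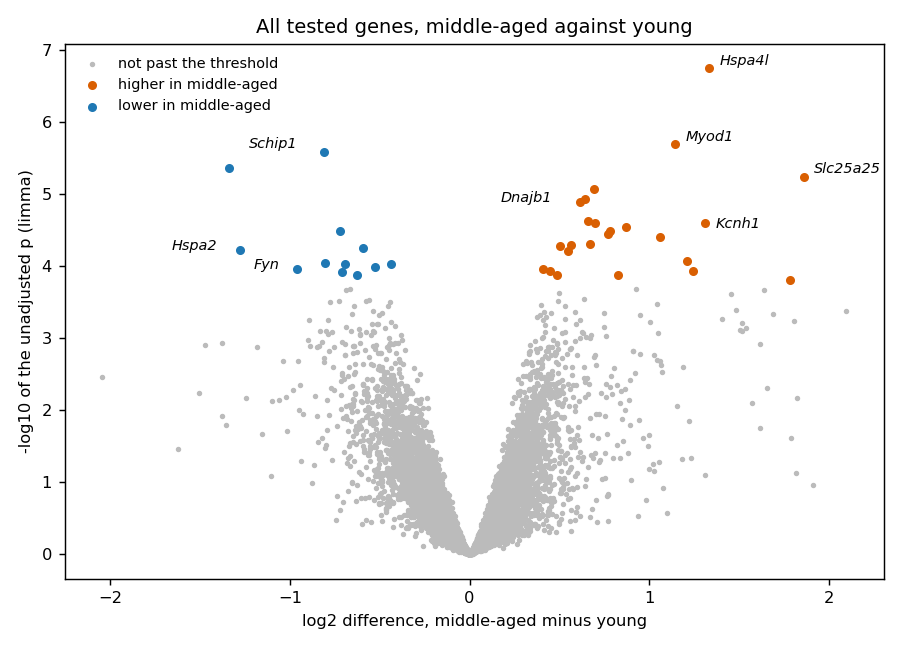
Each tested feature is a point, with the log2 difference of middle-aged minus young on the x axis and -log10 of the unadjusted limma p on the y axis. The 24 features called higher and the 12 called lower stand above the rest.

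In 35 of the 36 the 5 middle-aged arrays lay wholly apart from the 5 young ones. Over all features this held for 461 (4.6%), 2.91% higher and 1.69% lower. The exception was Hspa2. The 36 were called on these same arrays, so their separation is no independent support for them.

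**Figure D2:**
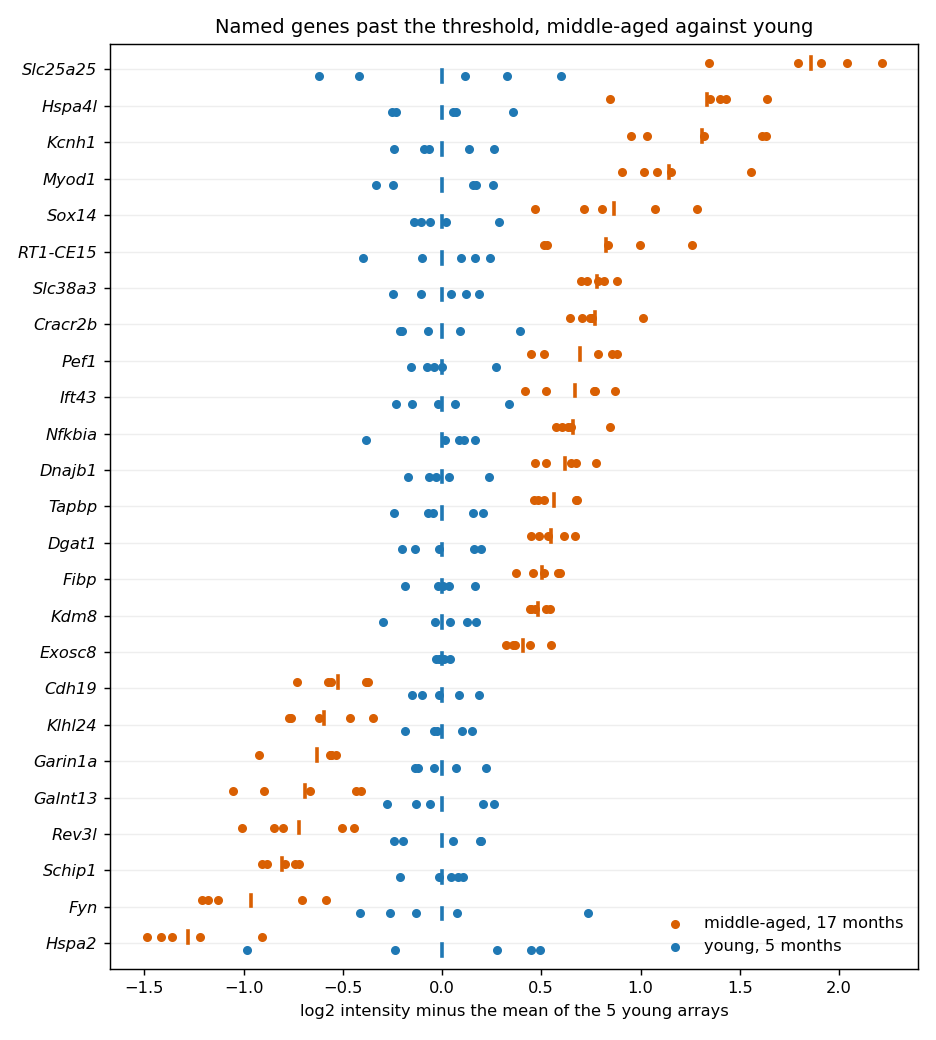
Each row is a called gene with a symbol and each point an array, as log2 intensity minus the mean of the 5 young arrays, with middle-aged arrays in orange above young arrays in blue. The orange points lie outside the blue ones in every row except Hspa2, where young replicate 1 overlaps.

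Of the chaperones 3 passed the test, and they moved in opposite directions. Hspa4l, a chaperone of the Hsp110 family, had log2 intensities of 7.33, 7.28, 6.78, 7.36 and 7.57 in middle-aged muscle, against 6.00, 6.29, 5.70, 5.68 and 5.99 in young muscle. The lowest middle-aged array stood above the highest young one. Hspa4l rose by 1.33 (SE 0.15, 2.52-fold, adjusted p = 0.00179), the smallest adjusted p of the comparison. Old arrays lay at 7.01 to 7.45, and old minus young was 1.30.

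Dnajb1, a heat-inducible Hsp40 co-chaperone, had 9.63, 9.83, 9.69, 9.94 and 9.81 in middle-aged muscle, against 8.99, 9.09, 9.40, 9.20 and 9.13 in young muscle. The groups did not overlap, and Dnajb1 rose by 0.62 (SE 0.10, 1.53-fold, adjusted p = 0.0161). Its old mean of 9.50 lay between those of the other ages. Hspa2, an Hsp70 family member best known from testis, had 6.16, 5.65, 5.85, 5.71 and 5.58 in middle-aged muscle, against 6.09, 7.52, 6.83, 7.35 and 7.56 in young muscle. Young replicate 1 was as low as the middle-aged arrays, and the other young arrays were above them all. Hspa2 fell by 1.28 on the log2 scale (SE 0.24, adjusted p = 0.0277), and old minus young was -1.44.

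Of 40 listed heat shock proteins and co-chaperones 30 were tested, with 2 called higher and 1 lower. Of the 30, 20 had a difference above 0, where 49.7% of all features did, and the median was 0.08. The 19 tested chaperones and stress genes of the endoplasmic reticulum had no call by limma, 3 with an unadjusted p below 0.05 and a median of 0.13. Syvn1, a ubiquitin ligase of that compartment, differed by 0.32 and Manf, a secreted stress protein, by 0.35 (adjusted p = 0.187 and 0.195).

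The highest called difference was that of Slc25a25, a calcium-regulated carrier that exchanges ATP-Mg for phosphate across the inner mitochondrial membrane. It had 11.05, 11.35, 10.93, 11.18 and 10.48 in middle-aged muscle, against 9.74, 9.25, 8.52, 9.46 and 8.72 in young muscle. The groups did not overlap, and the young arrays were the more spread. Slc25a25 rose by 1.86 (SE 0.28, 3.63-fold, adjusted p = 0.0116). In old muscle it averaged 9.89 ± 0.62 (SD, n = 5), and old minus middle-aged was -1.11 (adjusted p = 0.0569). Of 26 mitochondrial carriers tested Slc25a25 was the one call, and the list median was -0.02 with 12 above 0. Slc25a46, an outer membrane protein of mitochondrial dynamics, differed by -0.33 (adjusted p = 0.195).

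The respiratory chain had no call by limma. Complex I had a median of -0.01 over 27 genes, none with an unadjusted p below 0.05, and complexes II and III had 0.06 over 8, likewise none. Ndufs5 and Ndufb2 of complex I lay at 0.30 and -0.14, and Sdhc and Sdhd of complex II at 0.19 and 0.21. Complex IV had 0.04 over 11 and complex V -0.01 over 13, each with 1 such gene: Cox7b at 0.24 and Atp5mc3 at 0.23. The Atp5mc3 signal was near the detection limit, detected on 5 middle-aged and 3 young arrays. Next in those lists were Cox6a2 at -0.13 and Atp5f1b at -0.19. Members of complex I lay between -0.21 and 0.30. With the deposited Z scores the median of complex I was 0.11 and that of complex V 0.17, in Z units, so the sign of both depended on the scaling.

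The tricarboxylic acid cycle list had a median of -0.07 over 23 and 0.02 in Z units, with no call by limma and 2 genes at an unadjusted p below 0.05. These were Pdk1, a kinase that shuts off pyruvate dehydrogenase, at -0.34 and Cs, citrate synthase, at -0.36 (adjusted p = 0.202 and 0.308). Genes of mitochondrial biogenesis had a median of -0.0019 over 17, with Tfb1m, a mitochondrial transcription factor, at 0.30 and Esrrg, a nuclear receptor of oxidative metabolism, at 0.30. Esrrg was near the detection limit, detected on 3 middle-aged and 2 young arrays. Fusion, fission and mitophagy genes had 5 of 19 above 0 and a median of -0.11. Mtfr1 and Mff, both fission factors, differed by -0.47 and -0.29. Neither of these lists had a call by limma, and 2 and 2 genes had an unadjusted p below 0.05.

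Mitochondrial ribosomal proteins had 41 of 55 above 0, a median of 0.06 and no call by limma, with 5 at an unadjusted p below 0.05. Mrps18b, a subunit of that ribosome, ranged from 13.22 to 13.36 in middle-aged and from 12.77 to 13.04 in young muscle. The groups were apart, but the difference of 0.38 missed the threshold (adjusted p = 0.0728). Mrps27 differed by 0.35. Cytosolic ribosomal proteins had a median of 0.04 over 56, with Rps24 at -0.27, Rpl31 at 0.37, no call by limma and 2 at an unadjusted p below 0.05.

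Dgat1, which makes triglyceride from diacylglycerol, was called higher. It had 9.40, 9.22, 9.34, 9.18 and 9.27 in middle-aged muscle, against 8.59, 8.53, 8.72, 8.93 and 8.89 in young muscle. The groups were apart, and Dgat1 rose by 0.55 (SE 0.10, 1.46-fold, adjusted p = 0.0277). The list of fatty acid uptake and oxidation, which does not hold Dgat1, had 24 of 34 genes above 0 and a median of 0.17. None was called by limma and 10 had an unadjusted p below 0.05. The middle-aged arrays were all above the young ones in 6 of the 34 and all below them in 1. Over all features this held for 2.91% and 1.69%. Decr1, an enzyme for unsaturated chains, differed by 0.50 (adjusted p = 0.134) and Lipe, hormone-sensitive lipase, by 0.73 (adjusted p = 0.144).

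Of the adipocyte markers none of 12 was called by limma and 4 had an unadjusted p below 0.05. Of the 12, 10 lay above 0, with a median of 0.30 and a summed intensity of 16640 to 28684 in middle-aged and 15867 to 19662 in young muscle. Fabp4, a fat cell binding protein, differed by 0.51 (adjusted p = 0.194), and Lep, leptin, was detected on none of the 10 arrays. The part of fat cells in the values of fat handling was not tested. In such bulk samples more cells of a type and more RNA per cell cannot be told apart.

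Glycolysis and glycogen genes had 12 of 32 above 0 and a median of -0.10, with no call by limma and 5 at an unadjusted p below 0.05. Hk2, a hexokinase, differed by -0.44 and Phkb, a subunit of phosphorylase kinase, by -0.43 (adjusted p = 0.202 and 0.262). The median was 0.03 in Z units, so its sign depended on the scaling. Sterol and fatty acid synthesis genes had 4 of 16 above 0, no call by limma and 1 with an unadjusted p below 0.05, Fdft1 (squalene synthase), at -0.40. Fdps, farnesyl diphosphate synthase, lay on the other side, at 0.18.

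Myod1 was the one call among the myogenic and satellite cell genes. It had 11.58, 11.82, 11.69, 11.75 and 12.23 in middle-aged muscle, against 10.93, 10.83, 10.43, 10.84 and 10.34 in young muscle. Every middle-aged array lay above every young one. Myod1 rose by 1.14 (SE 0.16, 2.21-fold, adjusted p = 0.00866), and old minus young was 1.01. Of 31 listed genes 18 were tested, 11 lay above 0 and the median was 0.09. Id1, an inhibitor that binds the partners of MyoD, differed by 0.66 (adjusted p = 0.148). Myog, myogenin, and Mstn, the growth inhibitor myostatin, were looked up after the values were seen. Myog differed by 1.08 (adjusted p = 0.443) and Mstn by -0.46 (adjusted p = 0.367).

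At the neuromuscular junction 1 young array stood apart. Chrne, the adult subunit of the acetylcholine receptor, had 4.89, 7.76, 6.37, 6.85 and 5.42 in middle-aged muscle, against 8.50, 8.28, 5.38, 8.43 and 8.82 in young muscle. Young replicate 3 was low, and the other young arrays were above all middle-aged ones. Colq, which anchors acetylcholinesterase at the synapse, had 5.09, 5.43, 5.43, 5.20 and 5.14 in middle-aged muscle, against 6.26, 6.25, 5.27, 6.12 and 6.28 in young muscle, and the same young array was low. The differences were -1.62 for Chrne and -0.78 for Colq (adjusted p = 0.282 and 0.0642). Colq was near the detection limit in middle-aged muscle, detected on 2 middle-aged and 5 young arrays. None of the 18 tested genes of the list was called by limma, 3 had an unadjusted p below 0.05, and the median was 0.01.

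Cdh19, a cadherin of Schwann cells, was called lower. It ranged from 6.33 to 6.68 in middle-aged and from 6.90 to 7.24 in young muscle and fell by 0.52 (SE 0.10, adjusted p = 0.0373). The 5 tested markers of Schwann cells and nerve summed to 1057 to 1520 in middle-aged and 1158 to 1691 in young muscle, with 3 above 0. Sox10 and Mag, which define Schwann cells, were detected on none of the 10 arrays, and Pmp22, a myelin protein, differed by -0.27. The part of nerve content in the Cdh19 value was not tested.

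Nfkbia of the inflammatory list, Tapbp of the antigen presentation list and RT1-CE15 were called higher. Nfkbia, which holds NF-kappaB in the cytoplasm, had 10.95, 10.91, 10.88, 11.15 and 10.94 in middle-aged muscle, against 10.32, 10.39, 10.47, 9.92 and 10.41 in young muscle. The groups did not overlap, and Nfkbia rose by 0.66 (SE 0.11, 1.58-fold, adjusted p = 0.023). It was the one call of the inflammatory list, which had 18 of 28 above 0 and a median of 0.15. Ccl11, the eosinophil attractant eotaxin, differed by 1.06 (adjusted p = 0.101).

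Tapbp, tapasin, which helps load peptides onto class I molecules, had 8.15, 7.99, 7.94, 8.15 and 7.96 in middle-aged muscle, against 7.63, 7.40, 7.68, 7.23 and 7.42 in young muscle. The groups were apart, and Tapbp rose by 0.56 (SE 0.10, adjusted p = 0.0276). RT1-CE15, a rat class I gene, ranged from 6.98 to 7.73 in middle-aged and from 6.08 to 6.71 in young muscle and rose by 0.83 (SE 0.17, adjusted p = 0.0377). Rat class I genes include near-identical copies, so which of them its probe reads is uncertain. Of 18 antigen presentation genes tested 17 lay above 0 and the median was 0.41, with Tapbp as the one call. RT1-M3-1, a class I-like gene, differed by 0.41 (adjusted p = 0.127). Young replicate 3 lay above the other young arrays by a median of 0.44 over this list, and without it the median difference was 0.50.

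White blood cell markers were mostly below detection. Of 22 lymphocyte and natural killer markers 3 were tested, and Cd3d, Cd3e, Cd8a and Ms4a1 were detected on none of the 10 arrays. The 3 tested ones summed to 137 to 347 in middle-aged and 98 to 148 in young muscle. Prf1, perforin of cytotoxic cells, differed by 0.67 (adjusted p = 0.0834) and was detected on 5 middle-aged arrays and 1 young one, and Nkg7, of cytotoxic granules, differed by 0.85 (adjusted p = 0.257). Rnase3, an eosinophil ribonuclease, had 7.65, 6.03, 6.03, 7.64 and 6.82 in middle-aged muscle and was detected on 0 young arrays, where values were 4.91 to 5.20. It was at least 2.99-fold higher in middle-aged muscle, short of the threshold (adjusted p = 0.152). Tpsb2, a mast cell tryptase, differed by 0.16 and was detected on 3 middle-aged and 3 young arrays. Prf1 and Nkg7 passed the detection filter mostly, and Rnase3 only, through middle-aged and old arrays. That filter favored markers high at those ages, so their differences and the lymphocyte marker sum carry that selection.

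Macrophage markers summed to 1662 to 3703 in middle-aged and 1295 to 3581 in young muscle, with a median of 0.15 over 11, none called by limma and 1 at an unadjusted p below 0.05. Fcgr3a, an Fc receptor, lay at 0.21 and Itgam, an integrin, at 0.18. Both were near the detection limit. Fcgr3a was detected on 2 middle-aged and 0 young arrays, and Itgam on 2 middle-aged and 2 young arrays. Interferon-responsive genes had no call by limma either, a median of 0.13 over 15 and 2 at an unadjusted p below 0.05. Among them Irf7, a transcription factor of that response, lay at 0.39 and Eif2ak2, a kinase activated by double-stranded RNA, at -0.47. The part of immune cells in the antigen presentation and Nfkbia values was not tested.

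Immediate early genes had 13 of 24 above 0 and a median of 0.15, with no call by limma and 7 at an unadjusted p below 0.05. Jun, a subunit of the AP-1 factor, had 8.77, 8.56, 8.20, 8.96 and 8.83 in middle-aged muscle, against 7.98, 8.02, 8.05, 7.80 and 7.95 in young muscle. Its groups were apart, with a difference of 0.71 (adjusted p = 0.106). Nr4a2, an orphan nuclear receptor, lay on the other side, at -0.39 (adjusted p = 0.137). It was detected on 0 middle-aged and 4 young arrays, at least 1.08-fold lower in middle-aged muscle. Nr4a2 passed the detection filter only through young and old arrays, so its difference carries that selection. Among glucocorticoid-responsive genes, Fkbp5, a co-chaperone of the hormone receptor, had 9.48, 9.37, 9.58, 9.67 and 9.41 in middle-aged muscle, against 10.38, 9.89, 10.38, 10.50 and 10.34 in young muscle (difference -0.80, adjusted p = 0.0794). Per1, which also belongs to the clock, differed by 1.16 and Per2 by 0.63 (adjusted p = 0.164 and 0.304). The medians were 0.12 over 19 glucocorticoid-responsive and 0.03 over 14 clock genes. By limma neither list had a call, and 5 and 2 genes had an unadjusted p below 0.05.

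Kcnh1, Cracr2b and Pef1 were called higher. Kcnh1, a voltage-gated potassium channel, had 6.45, 6.77, 6.74, 6.16 and 6.08 in middle-aged muscle, against 5.04, 5.07, 5.27, 4.89 and 5.40 in young muscle, and 2 young arrays detected it. It rose by 1.31 (SE 0.22, adjusted p = 0.023), and old minus young was 1.62. Cracr2b, a regulator of store-operated calcium entry, averaged 8.65 ± 0.14 in middle-aged and 7.88 ± 0.25 in young muscle (SD, n = 5 each) and rose by 0.77 (adjusted p = 0.0241). Pef1, a calcium-binding protein, averaged 8.01 ± 0.20 in middle-aged and 7.31 ± 0.16 in young muscle (SD, n = 5 each) and rose by 0.70 (adjusted p = 0.023). Of 24 listed genes of calcium release and contraction coupling that were tested none was called by limma, 2 had an unadjusted p below 0.05, and the median was -0.04. Cacna2d1, a subunit of the calcium channel that senses voltage, lay at -0.23 and Stac3, of the coupling complex, at 0.34. Kcnh1 was the one call among 18 channels of the muscle membrane, whose median was 0.0018, and Kcnj12, which sets the resting potential, lay at -0.45. Cracr2b and Pef1 belonged to no list.

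Slc38a3, a glutamine transporter, and Kdm8, an oxygenase of the Jumonji family, were higher in middle-aged muscle than at either other age. Slc38a3 had 6.70, 6.52, 6.55, 6.64 and 6.60 in middle-aged muscle, against 5.86, 5.71, 6.00, 5.57 and 5.94 in young muscle, and rose by 0.78 (SE 0.14, adjusted p = 0.0231). Kdm8 ranged from 7.73 to 7.83 in middle-aged and from 6.99 to 7.46 in young muscle and rose by 0.49 (SE 0.10, adjusted p = 0.0377). In old muscle Slc38a3 averaged 5.96 ± 0.33 and Kdm8 7.35 ± 0.11 (SD, n = 5). Old minus middle-aged was -0.64 for Slc38a3 and -0.42 for Kdm8 (adjusted p = 0.032 and 0.0427). ILMN_1357275 rose by 0.45 from young to middle-aged (adjusted p = 0.0373), and its old minus middle-aged was -0.38 (adjusted p = 0.0438).

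Across all features 1.74% passed the threshold in old against middle-aged. That comparison shares the middle-aged arrays on which these genes were called, so these p-values are no independent test of a difference after midlife.

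**Figure D3:**
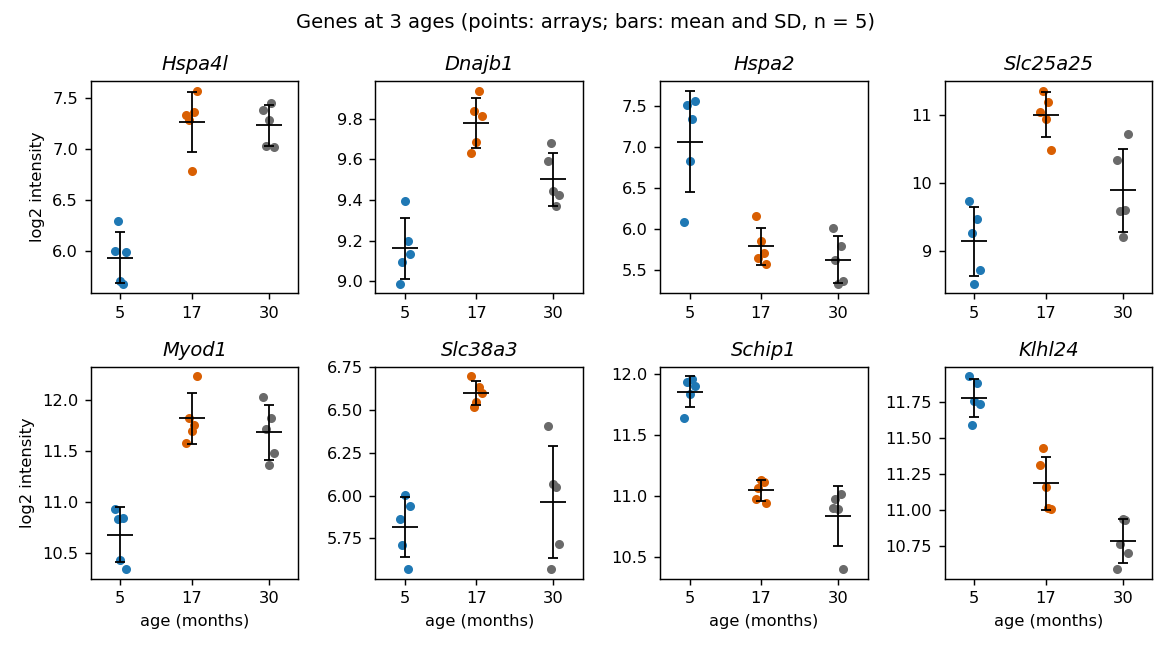
Log2 intensity (y axis) of 8 called genes at 5, 17 and 30 months (x axis), with arrays as points and mean and SD as bars (n = 5). Slc25a25, Slc38a3, Dnajb1, Myod1 and Hspa4l have their highest mean at 17 months. Hspa4l has means of 7.27 at 17 and 7.23 at 30 months, and Klhl24 is lower at each later age.

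Schip1, Klhl24, Fyn, Rev3l, Galnt13 and Garin1a were the other named genes called lower. Schip1, a partner of the membrane linker schwannomin, had 10.97, 11.06, 11.13, 11.11 and 10.94 in middle-aged muscle, against 11.64, 11.93, 11.84, 11.96 and 11.90 in young muscle. The gap between the groups was wider than the range of either. Schip1 fell by 0.81 (SE 0.11, adjusted p = 0.00866), and old arrays lay at 10.40 to 11.01. Klhl24, an adaptor of a ubiquitin ligase, averaged 11.18 ± 0.19 in middle-aged and 11.77 ± 0.13 in young muscle (SD, n = 5 each). Its groups were apart. It fell by 0.59 (SE 0.11, adjusted p = 0.0277), and old minus young was -0.99.

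Fyn, a tyrosine kinase of the Src family, had 5.61, 5.19, 5.11, 5.73 and 5.14 in middle-aged muscle, against 5.91, 7.05, 6.19, 6.05 and 6.39 in young muscle. It was detected on 2 middle-aged and 5 young arrays and fell by 0.96 (SE 0.19, adjusted p = 0.0373). Rev3l, the catalytic subunit of a polymerase that copies past DNA damage, averaged 7.38 ± 0.24 in middle-aged and 8.10 ± 0.21 in young muscle (SD, n = 5 each) and fell by 0.72 (adjusted p = 0.0231). Galnt13, which starts O-linked sugar chains, averaged 5.82 ± 0.28 in middle-aged and 6.52 ± 0.23 in young muscle (SD, n = 5 each) and fell by 0.69 (adjusted p = 0.0361). Garin1a, a Golgi-associated partner of Rab2, was detected on 0 middle-aged and 5 young arrays, and was at least 1.15-fold lower in middle-aged muscle (adjusted p = 0.0377). It passed the detection filter only through young and old arrays, so its difference carries that selection. Without a filter on dim probes its call was lost.

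The remaining called genes with a symbol were higher. Sox14, a transcription factor of the Sox family, ranged from 6.11 to 6.93 in middle-aged and from 5.50 to 5.93 in young muscle and rose by 0.87 (SE 0.15, adjusted p = 0.0231). Ift43, of transport in cilia, ranged from 7.52 to 7.98 in middle-aged and from 6.87 to 7.44 in young muscle and rose by 0.67 (adjusted p = 0.0276). Fibp, an intracellular partner of a fibroblast growth factor, ranged from 8.44 to 8.66 in middle-aged and from 7.88 to 8.24 in young muscle and rose by 0.50 (adjusted p = 0.0276). Exosc8, a subunit of the RNA exosome, had the smallest called difference. Its young arrays lay within 8.95 to 9.02, below the lowest middle-aged array at 9.30, and it rose by 0.41 (adjusted p = 0.0373). A second probe of Exosc8 differed by 0.22, in the same direction.

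The 11 called probes with no symbol here comprised 7 higher and 4 lower. Those of largest size, chosen after their values were seen, were ILMN_1650304 and ILMN_1356377. ILMN_1650304 ranged from 8.38 to 9.12 in middle-aged and from 6.63 to 7.18 in young muscle and rose by 1.78 (adjusted p = 0.0438). ILMN_1356377 ranged from 6.24 to 6.93 in middle-aged and from 7.47 to 8.02 in young muscle and fell by 1.34 (adjusted p = 0.0109). Named genes just outside the threshold were Eif1ad, a relative of a translation factor, at 0.50, Rnf113a2, a ring finger protein, at 0.64, and Ulk2, an autophagy kinase, at -0.72 (adjusted p = 0.0576, 0.0642 and 0.0642). Rnf113a2 was detected on 5 middle-aged arrays and 1 young one.

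Collagens and matrix genes had the lowest median of the lists, with no call by limma. Of 41 listed 29 were tested, 8 lay above 0 and the median was -0.55. Of these 13 had an unadjusted p below 0.05. Col1a1, a chain of the main fibrillar collagen, had 8.03, 7.69, 8.10, 8.98 and 8.90 in middle-aged muscle, against 8.75, 11.41, 11.69, 8.86 and 11.22 in young muscle. Young replicates 2, 3 and 5 were high, and young replicates 1 and 4 lay within the range of the middle-aged arrays. The difference was -2.05 (SE 0.60, adjusted p = 0.126). Col3a1 showed the same split of the young arrays and ranged from 7.52 to 8.41 in middle-aged and from 7.95 to 10.65 in young muscle. Lamc1, a laminin chain, differed by -0.55 (adjusted p = 0.0814). Matrix proteases and their inhibitors had a median of -0.13 over 12, with no call by limma and 0 at an unadjusted p below 0.05. Plau, urokinase, lay at -0.56 and Adamts1, a metalloprotease, at 0.47.

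Fibroblast markers, which include Col1a1 and Col3a1, summed to 23199 to 46584 in middle-aged and 19265 to 60696 in young muscle, and Thy1 and Cd34 were detected on none of the 10 arrays. Of the tendon markers 4 of 5 lay above 0, with a median of 1.31. Fmod, fibromodulin, had 9.59, 9.44, 10.26, 11.36 and 11.38 in middle-aged muscle, against 7.17, 9.01, 11.20, 6.56 and 8.99 in young muscle (difference 1.82, adjusted p = 0.368). The groups overlapped, as they did for Kera, keratocan, at 1.31 (adjusted p = 0.379). The tendon sum was 3081 to 10361 in middle-aged and 600 to 10244 in young muscle, and the highest young value was that of replicate 3. Red blood cell markers summed to 12063 to 38481 in middle-aged and 6986 to 24294 in young muscle, with Hba-a1 and Hbb, both globins, at 0.51 and 0.45. The part of tendon, connective tissue and blood in the results was not tested.

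**Figure D4:**
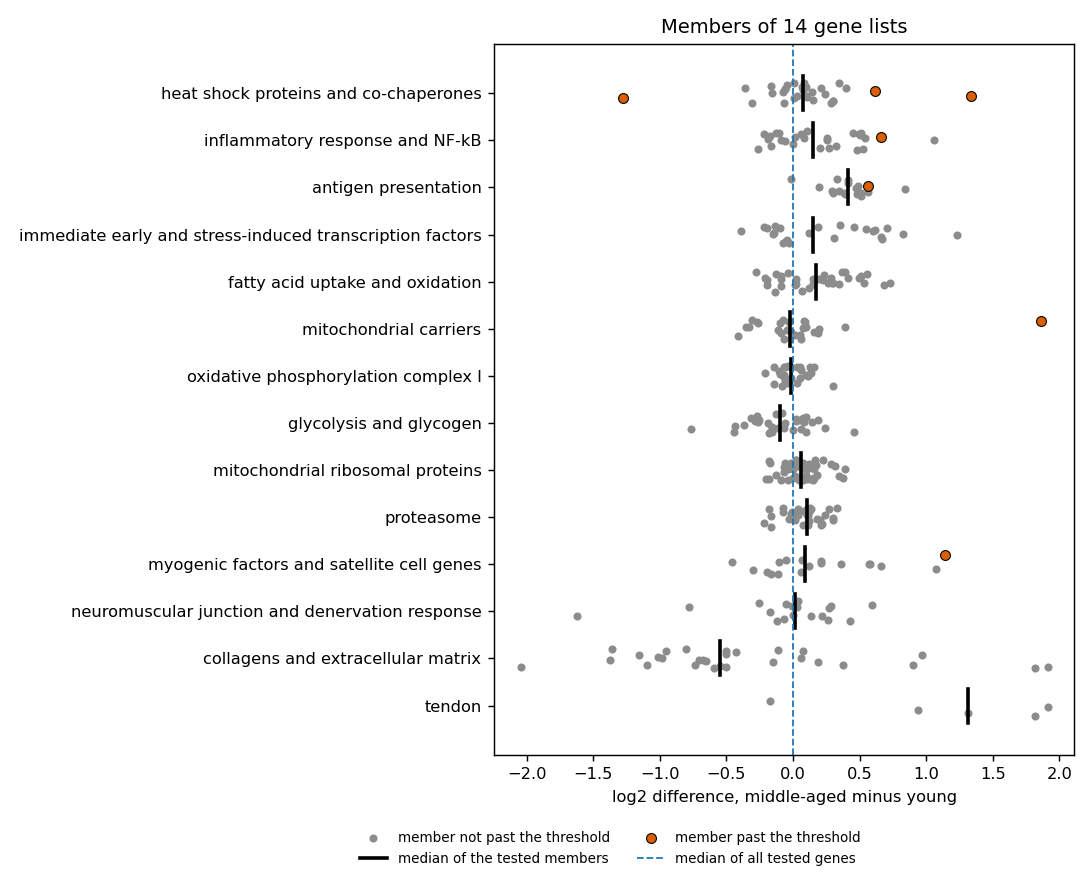
Each row is a gene list and each point a tested member, placed by its log2 difference of middle-aged minus young (x axis), with called members in orange, list medians as bars and the median of all features as a dashed line. The median of antigen presentation lies at 0.41, that of the tendon markers at 1.31 and that of the collagens at -0.55.

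The contractile lists had no call by limma. Fast fiber genes had 7 of 13 above 0, with Tpm1, a tropomyosin, at 0.38 and Actn3, an actinin, at 0.37, and slow fiber genes had 5 of 8, with Tnnt1, slow troponin T, at 0.27 and Actn2 at 0.20. Tnnt1 was near the detection limit, detected on 4 middle-aged and 2 young arrays. In these lists 4 fast and 0 slow genes had an unadjusted p below 0.05. Ckm, muscle creatine kinase, had 15.54, 15.54, 15.52, 15.58 and 15.61 in middle-aged muscle, against 15.08, 15.18, 15.50, 15.08 and 14.86 in young muscle. Its groups were apart, with a difference of 0.42 (adjusted p = 0.0932), and Acta1, skeletal actin, differed by 0.44 (adjusted p = 0.095). Endothelial markers summed to 2684 to 3572 in middle-aged and 2118 to 3852 in young muscle, with a median of 0.06 over 11 and Vwf, von Willebrand factor, at 0.53 and Ets1, a transcription factor, at -0.20. Smooth muscle and pericyte markers had a median of -0.04 over 7, with Abcc9, a channel subunit, at -0.21 and Lmod1, leiomodin, at -0.11. Lmod1 was near the detection limit, detected on 1 middle-aged and 2 young arrays. By limma neither the endothelial nor the smooth muscle list had a call, and 1 endothelial and 0 smooth muscle markers had an unadjusted p below 0.05.

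Growth signaling and protein turnover had no call by limma either. IGF-1, insulin and mTOR genes had a median of -0.04 over 31, 4 with an unadjusted p below 0.05. Grb10, an adaptor that damps insulin signaling, was at -0.48 and Ddit4, an inhibitor of mTOR, at 0.86 (adjusted p = 0.117 and 0.173). Grb10 was detected on 0 middle-aged and 4 young arrays, and was at least 1.21-fold lower in middle-aged muscle. It passed the detection filter only through young and old arrays, so its difference carries that selection. TGF-beta, BMP and Wnt genes had a median of -0.07 over 28, 5 with an unadjusted p below 0.05, and the Wnt co-receptors Lrp6 and Lrp5 lay on opposite sides of 0, at -0.54 and 0.52 (adjusted p = 0.0721 and 0.164).

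Proteasome genes had 25 of 35 above 0 and a median of 0.11, with Psmb5, a catalytic subunit, at 0.24 and Psmc3, an ATPase of the cap, at 0.33 (adjusted p = 0.158 and 0.254). Atrophy and ubiquitin ligase genes had a median of -0.04 over 14, with Stub1, a ligase that works with chaperones, at 0.35 and Mdm2, the p53 ligase, at -0.39. Autophagy and lysosome genes had 11 of 29 above 0, with Atg7, an activating enzyme, at -0.40 and Wipi1, a phagophore protein, at 0.35 (adjusted p = 0.0859 and 0.156). An unadjusted p below 0.05 was found for 3 proteasome, 3 atrophy and 4 autophagy genes.

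Antioxidant genes had 22 of 34 above 0 and a median of 0.04, with Nqo1, a quinone reductase, at 0.49 and Prdx1, a peroxidase, at 0.28 (adjusted p = 0.122 and 0.136). Polyamine and amino acid genes had a median of 0.0026 over 20, with Bcat2, which takes the amino group off branched-chain amino acids, at 0.32 and Slc3a2, a subunit of amino acid transporters, at 0.36. Cell cycle genes had a median of 0.0019 over 18, with Tubb5, a tubulin, at 0.31. None of these lists had a call by limma, and 4 antioxidant, 2 polyamine and amino acid and 1 cell cycle genes had an unadjusted p below 0.05. Bub1, a spindle checkpoint kinase, was detected on 0 middle-aged and 3 young arrays, and was at least 1.02-fold lower in middle-aged muscle (adjusted p = 0.0892). It passed the detection filter only through young and old arrays, so its difference carries that selection.

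A list of 28 genes of mitochondrial, insulin and inflammatory pathways, drawn from the assays other than arrays that were run mostly in other species, had 20 tested members and no call by limma. Their differences lay between -0.36 and 0.25, with a median of -0.06. Those with an unadjusted p below 0.05 were Cs, given above, and Gsk3b, a kinase below insulin, at -0.34 (adjusted p = 0.293). Of the same pathway Akt1, Akt2 and Gsk3a lay at 0.06, -0.23 and -0.10. Mfn1 and Mfn2, which fuse outer membranes, lay at -0.19 and 0.0026, and Dnm1l and Fis1, which act in fission, at -0.19 and -0.21. The mitophagy genes Pink1, Bnip3 and Bnip3l lay at 0.05, 0.14 and 0.0063. The respiratory chain genes Ndufab1, Sdhb, Sdhd, Uqcrc1 and Atp5f1a lay at 0.05, -0.07, 0.21, -0.07 and -0.04. Rela and Nfkb1, subunits of NF-kappaB, lay at 0.10 and -0.13, and the cytokine Il1b, near the detection limit, at 0.25. Nfkb1 and Gsk3a were also near that limit, each detected on 3 middle-aged and 4 young arrays. A difference that misses the threshold with 5 arrays per age is not shown to be absent.

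How many features were called rested on single arrays. Leaving out 1 array at a time gave 3 to 165 calls. Without young replicate 3 there were 165 and without old replicate 5 there were 160, and both sets held all 36. Without middle-aged replicate 4 there were 3, namely Hspa4l, Myod1 and Schip1, which stayed called whichever of the 15 arrays was left out. Slc25a25 lost its call in that fit (adjusted p = 0.0529) and kept it in the other 14. On the 10 arrays alone 112 features were called, 34 of the 36 among them.

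**Figure D5:**
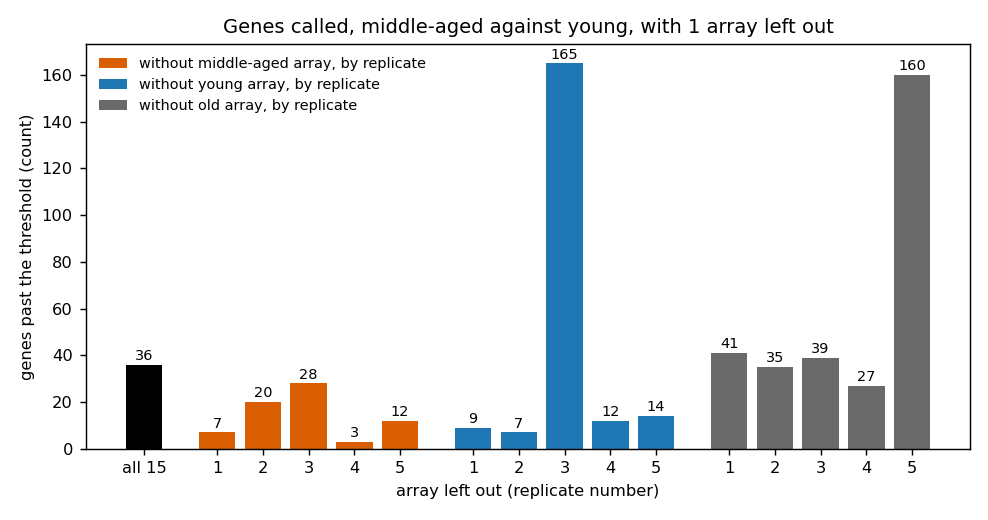
Number of features called in middle-aged against young with all 15 arrays and with each single array left out. The counts without young replicate 3 (165) and without old replicate 5 (160) stand above the 36 of all arrays, and that without middle-aged replicate 4 (3) is the lowest.

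Array weights, which give less say to arrays that depart from their group, raised the number of calls to 613 features (6.12%), 304 higher (3.03%) and 309 lower (3.08%). The lists took part in this in both directions. Of the fatty acid list 6 of 34 were then called, all higher: Decr1 by 0.48, the thiolase Acaa2 by 0.43, the fatty acid receptor Cd36 by 0.60, the carnitine transferase Cpt1b by 0.43, Mlycd, which removes malonyl-CoA, by 0.53, and the binding protein Fabp3 by 0.79. Of antigen presentation 4 of 18 were called, all higher (Tapbp, RT1-M3-1, RT1-N3 and the immunoproteasome subunit Psmb8). Of the inflammatory list 3 of 28 were called (Nfkbia, Ccl11 and Cxcl12) and of the immediate early list 3 of 24 (Jun, Ier3 and Cebpb), all higher. Of the mitochondrial ribosomal list 3 of 55 were called (Mrps18b, Mrps18a and Mrps12), also higher. That last share is near the 6.12% of all features called in either direction.

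Other lists were mixed or held few weighted calls. Of the autophagy list Wipi1, Ctsd and Npc2 were higher and Atg7 lower, of the glucocorticoid list Ddit4, Cebpb and Errfi1 were higher and Fkbp5 lower, and of the collagens Ccn2 was higher by 1.21 and Lamc1 lower by 0.49. Mitochondrial carriers had Slc25a25 and Slc25a20 higher and Slc25a46 lower, the insulin and mTOR list Ddit4 higher and Grb10 lower, and the channels Kcnh1 higher and Kcnj12 lower. The chaperones Hspa4l, Dnajb1 and Hspa2 kept their calls and directions. Higher were also Manf and Syvn1, Id1 and Myod1, Actn3 and Tpm1, Ckm and Acta1, Nqo1 and Prdx1, Stub1, Psmb5, Slc3a2, Prf1 and Rnase3, and lower were Pdk1, Colq, Bub1, Fdft1, Lrp6 and Cdh19. None was called with weights in the respiratory chain, glycolysis, biogenesis, fusion and fission, slow fiber, calcium, interferon, clock, protease, cytosolic ribosomal, fibroblast, endothelial, smooth muscle, adipocyte, macrophage, red blood cell and tendon lists, nor in that of genes from other assays. Genes named here and nowhere earlier were chosen after their values were seen. Among the weighted calls, Rnase3 passed the detection filter only, and Prf1 mostly, through middle-aged and old arrays. Bub1 and Grb10 passed it only through young and old arrays. The weighted calls of these genes carry that selection.

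Young replicate 3 and old replicate 5 had the lowest array weights, 0.54 and 0.218, against 0.729 to 1.82 for the others. The median distance of an array from the mean of the other 4 of its age was 0.139 to 0.159 for the middle-aged arrays, 0.222 for young replicate 3 and 0.15 to 0.167 for the other young arrays. Young replicate 3 lay above the other young arrays by a median of 3.15 over the tendon markers, 0.92 over the red blood cell markers and 0.66 over the collagens. With both arrays left out, a fit added after seeing the data, 667 features were called, 323 higher and 344 lower, all 36 among them.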

How the data were processed

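The authors deposited raw signal intensity per probe (22523 probes, GenomeStudio 2011.1 per the submitters' processing notes), neither normalized nor background-corrected, with a detection p-value per probe and array. They also deposited a Z score matrix (natural log centered on the array mean and divided by its SD). Scores recomputed from the intensities differed from it by at most 0.00727.

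Intensities went through neqc of limma 3.58.1 (R 4.3.3): normexp on the detection p-values, offset 16, quantile normalization, log2. Kept were the 10158 probes that 5 or more of the 15 arrays detected (p-value below 0.05), then the brightest probe per symbol (7300 named and 2721 unnamed features). One limma fit over 15 arrays held a mean per age (12 residual degrees of freedom), with Benjamini-Hochberg adjustment and two-sided tests. The code was checked on simulated arrays of equal spread, so that check does not cover the unequal weights of the real arrays. Of 22523 probes 13793 had 1 symbol, 0 several and 8730 none, and 4 symbols were updated through gene identifiers. Where no array of an age detected a gene, an at-least fold sets the mean of the brighter age against the higher, per array, of its own signal and the lowest detected one.

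Named genes were all those called, the 2 smallest p-values of each list, the tested members of a list taken from the study's other assays and the 3 nearest the threshold. Markers detected on no array, Myog, Mstn and genes called only with array weights were named beyond this rule, after their values were seen. Members and lists were chosen with earlier results of these data known, and the motifs other than the 3-unit heat shock element and the E-box after promoters were read. Lists are described by counts and medians without a set test. Limma p-values set a difference of means against the spread between arrays within an age, pooled over all 3 ages and moderated across features. Alternatives were no background correction, Z scores, no filter, a stricter filter, 10 arrays, array weights, every probe, a replicate block, single arrays left out, and the methods' t-test.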

Additional observations from a re-analysis of the deposited data

Results flagged for a closer look

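In 15 of 284 pairs of gene and age (5.28%) the highest or lowest of 5 arrays stood apart from the others by a gap above 0.71 of the range, and chance flags about 1 in 20 such groups. Among called genes, Nfkbia was flagged in middle-aged muscle (replicate 4 highest, gap 0.738) and in young muscle (replicate 4 lowest, 0.727), ILMN_1370928 in middle-aged muscle (replicate 4 highest, 0.719) and Garin1a in middle-aged muscle (replicate 3 lowest, 0.919). Middle-aged replicate 4 was also highest for Prf1 (0.822), replicate 1 for Tnnt1 (0.71), and replicate 3 was lowest for Ccl11 (0.801), Cox7b (0.809) and Actn2 (0.744). Young replicate 3 made up 5 of the 15, lowest for Colq (0.847), Chrne (0.844) and Abcc9 (0.871) and highest for Slc3a2 (0.803) and Syvn1 (0.732). Young replicate 2 was lowest for Fkbp5 (0.741).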

How the results depend on the processing

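Each of the 36 called features kept its direction under every alternative in which it was tested. The alternatives reuse the arrays on which the features were called, and in 35 of the 36 the groups did not overlap. A kept direction is therefore no independent support. Of the 821 values of these features under the alternatives 523 stayed past the threshold and 298 did not. Counts of changed genes, with those higher and lower, were 36 (24 and 12) with the settings reported above. They were 30 (23 and 7) without background correction, 171 (42 and 129) with the Z scores, 31 (23 and 8) without a filter, 29 (21 and 8) for probes detected on all 10 arrays, 112 (84 and 28) on the 10 arrays alone, 613 (304 and 309) with array weights and 36 (24 and 12) with every probe. Leaving out single arrays gave 3 to 165 changed, 2 to 97 higher and 1 to 75 lower. Leaving out young replicate 3 and old replicate 5 together, chosen after seeing the data, gave 667 (323 and 344). The cause of these moves was not tested. Of the 9, 7, 165, 12 and 14 calls without young replicates 1 to 5, 9, 7, 36, 12 and 13 were among the 36.

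With the replicate block 9 genes were called (7 higher and 2 lower). Same-numbered middle-aged and young arrays deviated together with correlations between -0.495 and 0.0176, so the numbers were not taken as pairs. The methods' t-test on Z scores (Z ratio above 1.5, p below 0.05, mean Z above 0) passed 1238 probes, 411 higher and 827 lower, and 33 after Benjamini-Hochberg, 15 and 18. Of the 36 called features 20 passed this rule before and 5 after that adjustment. Of 1125 list medians under the alternatives 30 differed from the reported one by more than the SD between arrays. Of these 15 were with Z scores, where a median in Z units was set against a median and SD in log2 units. Those 15 can come from the change of scale and do not measure a shift. Of 49 lists 28 kept 1 sign throughout. The 5 arrays per age limit the precision of every value, and Fyn, Galnt13, Garin1a, Kcnh1, RT1-CE15 and 6 unnamed probes lost their call without background correction.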
